A study of Mus musculus with 14 samples.

Results

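The genes described here are 10 members of transforming growth factor beta (TGF-beta) and SMAD signalling, measured in tumours of control mice and of mice labelled HIF-2α deficient. They are the ligand genes Tgfb1, Tgfb2, Tgfb3 and Bmp4, the receptor genes Tgfbr1 and Tgfbr2, the signal transducer genes Smad3, Smad4 and Smad7, and Tgfbi, which encodes a secreted matrix protein named for its induction by TGF-beta. They were chosen by name, with earlier results of these data known. Each probeset whose only gene in the platform annotation is one of them was taken, which gave 22 of the 22690 probesets in the table. A probeset is a group of short probes that together measure one transcript. Of the 22 probesets, 16 passed the filter on low values and were tested, and they cover 9 of the 10 genes.

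TGF-beta ligands are secreted in a latent form and, once released, bind a type II receptor (Tgfbr2), which activates a type I receptor (Tgfbr1). The receptors phosphorylate SMAD2 and SMAD3, which join SMAD4, enter the nucleus and bind DNA, while SMAD7 is induced by the pathway and blocks the receptors. BMP4 belongs to the same ligand family and signals through other receptors and SMADs. In lung, TGF-beta is known as a brake on epithelial growth and as a driver of fibroblast matrix production, and BMP4 is known for its part in the branching of the airways.

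Tumour RNA from 7 controls and from 7 HIF-2α deficient mice was hybridised to Affymetrix mouse arrays, 1 array a sample. The labels call the second group both a knockdown and deficient, and "deficient" is used here. HIF-2α is the oxygen-regulated transcription factor subunit encoded by Epas1. All mice, controls included, had a mixed background of the 129 SvJ and C57Bl6 strains. The labels name neither the organ, the promoter behind the deletion, the part of Epas1 that was lost nor the age of the mice. Defining genes of the alveolar type II cell were bright in both groups, with Sftpc at 13.85 ± 0.06 among controls and 13.89 ± 0.15 among deficient tumours (log2, SD, n = 7 each). The single Epas1 probeset read 5.84 ± 0.69 and 5.65 ± 0.51, a difference of -0.19 (SE 0.30, limma adjusted p = 0.807), and whether it lies inside the lost part is not known here. The descriptions of the arrays carry numbers, and some arrays begin with the same digits, 2 sets among controls and 3 among deficient arrays. Their meaning is not stated. Deficient replicates 3 and 6 share digits, as do replicates 1 and 5, and replicates 4 and 7, while deficient replicate 2 shares them with no other. Deviations from the group mean correlated at a mean r of 0.11 across probesets within the 14 pairs that share digits and at -0.28 within the other 28 pairs. Removal of the mean of 7 arrays alone gives about -0.17. If shared digits mark a shared mouse or batch, the independent samples are fewer than 14. As the digits were grouped here, no set holds arrays of both groups. On fewer digits, deficient replicates 4 and 7 would fall in with the controls. If the sets as grouped mark a batch, its effect cannot be told apart from the group difference. All p-values rest on the spread between arrays, which the design text assigns to separate mice.

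Levels are log2 values as deposited, and differences are deficient minus control on that scale. A level under 4 lies near the background set by the authors' processing and is only a bound. Levels of different probesets are not compared, since each depends on its own probes. None of the 16 tested probesets passed the threshold, an adjusted p under 0.05 over all 12701 probesets tested with limma. The share called over all probesets was 0.0394%, or 5 of them (0.0157% higher and 0.0236% lower in deficient tumours). At an unadjusted p under 0.05 there were 2 member probesets, both higher in deficient tumours, which is 12.5% of the 16 against 14.7% of all probesets, of which 8.09% were higher and 6.57% lower. The members' count is thus near that of the whole table. Of the 16 probesets 5 were higher and 11 lower in deficient tumours, with a median difference of -0.14, against 47.4% lower and a median of 0.02 over all probesets. In 0 of the 16 did the groups separate without overlap, against 0.496% of all probesets.

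**Figure D1:**
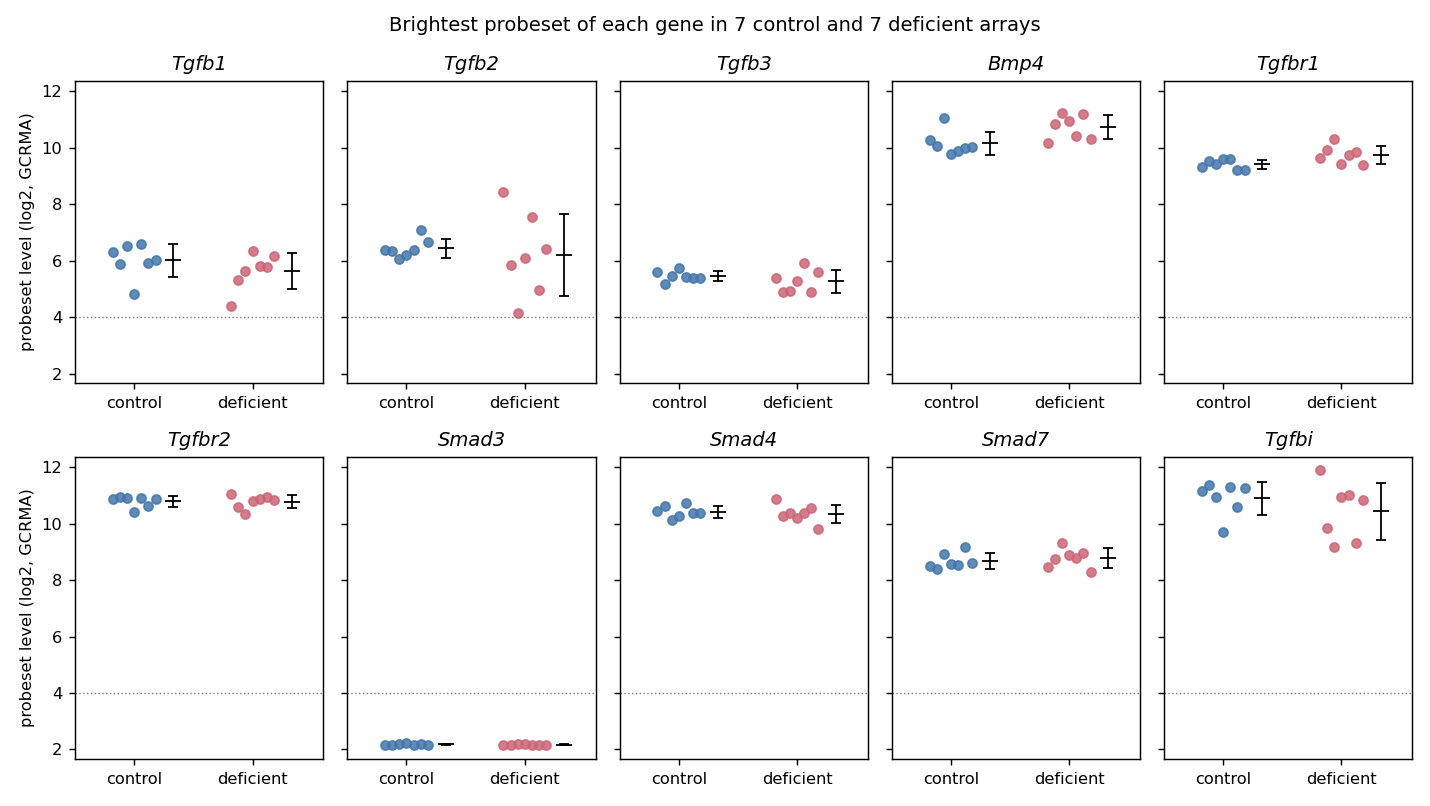
Level of the brightest probeset of each gene (log2) in 7 control and 7 deficient arrays. Points are arrays, the bar beside them is mean ± SD, and the dotted line marks the background level of 4. Tgfb2 and Tgfbi spread more widely among deficient arrays, Bmp4 sits higher in them, and Smad3 lies at the background in every array.

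Bmp4 gave the widest difference among the members. Its probeset ran from 9.79 to 11.04 among controls, with a median of 10.05, and from 10.17 to 11.23 among deficient tumours, with a median of 10.85. All 7 deficient arrays lay above the control mean, but control replicate 3, at 11.04, lay above 5 of them, so the groups overlapped. The means were 10.16 ± 0.42 and 10.74 ± 0.43 (SD, n = 7 each), a difference of 0.58 (SE 0.22, 95% interval 0.12 to 1.04). That is 1.49-fold, with an interval of 1.08 to 2.05. The unadjusted limma p was 0.0176 and the two-sided exact permutation p was 0.0262, while the adjusted p over all probesets was 0.245, so the difference did not pass. With arrays weighted by how closely they follow their group, it was 0.76 with an adjusted p of 0.0146, under a setting that called 15% of all probesets. Without control replicate 3 it was 0.72, with an adjusted p of 0.140. Other settings left it far from the threshold. With arrays averaged over shared digits the difference was 0.63 (limma adjusted p = 0.999). With those digits as a random block it was 0.61 (limma adjusted p = 0.989). Both of these settings called 0 of all probesets, so their adjusted p-values do not single out Bmp4. Without deficient replicates 3 and 6 the difference fell to 0.39 (limma adjusted p = 0.455).

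The 3 TGF-beta ligand genes did not differ beyond the spread between arrays. Tgfb1, the isoform most widely made by blood and immune cells, ran from 4.82 to 6.61 among controls (median 6.02) and from 4.40 to 6.33 among deficient tumours (median 5.79). The ranges overlapped almost fully, and the lowest array of each group, control replicate 4 and deficient replicate 1, stood below the rest. The difference was -0.37 (SE 0.31, 95% interval -1.03 to 0.29, limma adjusted p = 0.621).

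Tgfb3, which is made largely by mesenchymal cells, ran from 5.18 to 5.74 among controls (median 5.42) and from 4.89 to 5.94 among deficient tumours (median 5.29). Of the deficient arrays 3 lay under every control and 1 above every control. The difference was -0.18 (SE 0.16, 95% interval -0.53 to 0.17, limma adjusted p = 0.651).

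Tgfb2 was the most variable member between deficient arrays. Its brightest probeset ran only from 6.05 to 7.09 among controls (median 6.38). In deficient replicates 1 to 7 it read 8.42, 5.86, 4.16, 6.10, 7.56, 4.98 and 6.41. Replicates 1 and 5, which share leading digits, lay above every control, and replicates 3 and 6, which also share digits, were the lowest 2 of all 14 arrays, with replicate 2 next. The SD was 0.34 among controls and 1.45 among deficient tumours. The group means, 6.44 and 6.21, differed by -0.23 (SE 0.52, 95% interval -1.33 to 0.87, limma adjusted p = 0.873). The sign of that difference turned without deficient replicate 3 (0.11) and without replicates 3 and 6 (0.43). A dimmer probeset ran from 3.52 to 5.03 among controls and from 2.75 to 5.00 among deficient tumours and tracked the brightest one (r = 0.73 over 14 arrays after removal of group means, a description). The third lay under 4 in all 14 arrays.

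**Figure D2:**
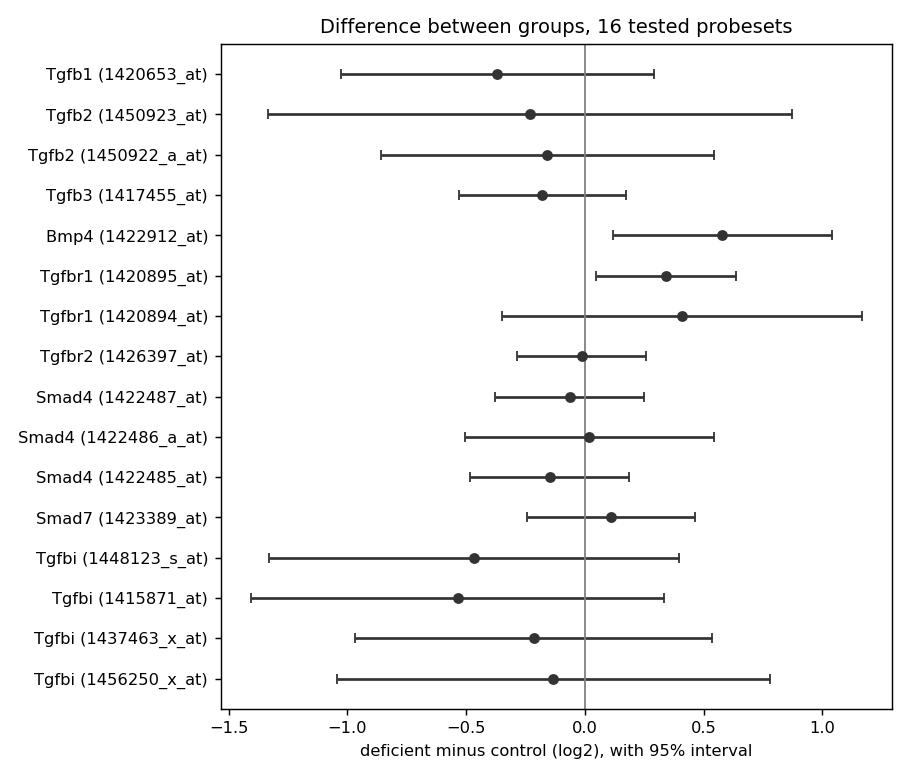
Difference between groups (deficient minus control, log2) with its 95% interval for the 16 tested probesets, each named with its probeset identifier. The intervals of Bmp4 and of the brighter Tgfbr1 probeset leave out 0 before adjustment for the number of probesets, and the other 14 include it.

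Of the receptor genes, Tgfbr1 read higher in deficient tumours without passing the threshold, and Tgfbr2 gave no direction. The brighter tested probeset of Tgfbr1, the type I receptor kinase, ran from 9.21 to 9.61 among controls (median 9.43) and from 9.39 to 10.30 among deficient tumours (median 9.74). Of the deficient arrays 5 lay above the highest control. The difference was 0.34 (SE 0.14, 95% interval 0.05 to 0.64, 1.27-fold), with an unadjusted limma p of 0.0264, an exact permutation p of 0.0204 and an adjusted p of 0.278. It was 0.25 without deficient replicate 3, the highest array, and 0.21 without replicates 3 and 6. The second tested Tgfbr1 probeset differed by 0.41 (SE 0.35), or by 0.09 without deficient replicate 3, which read 7.96 there. The third lay under 4 in all arrays.

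Tgfbr2, the type II receptor that binds the ligand first, was measured by 1 bright probeset and by 2 that lay at the background in all arrays. The bright probeset ran from 10.39 to 10.96 among controls (median 10.87) and from 10.33 to 11.05 among deficient tumours (median 10.84). Both groups cover nearly the same range, and the lowest arrays were control replicate 4 and deficient replicate 3. The difference was -0.01 (SE 0.13), and the 95% interval of -0.28 to 0.26 leaves room for 0.821-fold to 1.20-fold. Its sign turned under several settings and carries no direction.

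Among the transducers, Smad3 could not be measured. Its 2 probesets lay between 2.14 and 2.23 in all 14 arrays, at the background, so no difference is given and its transcript level in these tumours is not known from these values. The SMAD3 protein is the receptor-activated SMAD most tied to TGF-beta.

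Smad4, which encodes the shared partner of the receptor-activated SMADs, had 3 tested probesets. The brightest ran from 10.11 to 10.72 among controls (median 10.38) and from 9.82 to 10.86 among deficient tumours (median 10.36). Deficient replicate 1 was the highest array and replicate 7 the lowest. The difference was -0.06 (SE 0.15, 95% interval -0.38 to 0.25, limma adjusted p = 0.878). The other Smad4 probesets differed by 0.02 (SE 0.24) and -0.15 (SE 0.16). The 3 probesets disagreed in how arrays ranked: the dimmest followed neither of the others (r = 0.00 and -0.02 over 14 arrays), while the brighter pair followed each other at 0.64.

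Smad7, the inhibitory SMAD and a direct target of the pathway, ran from 8.38 to 9.16 among controls (median 8.57) and from 8.27 to 9.32 among deficient tumours (median 8.79). The groups overlapped over nearly the whole range. The difference was 0.11 (SE 0.16, 95% interval -0.24 to 0.46, limma adjusted p = 0.795), and -0.03 without deficient replicates 3 and 6.

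Tgfbi was measured by 4 probesets, all tested. The brightest ran from 9.71 to 11.36 among controls (median 11.16). In deficient replicates 1 to 7 it read 11.88, 9.86, 9.17, 10.94, 11.00, 9.33 and 10.85. Replicates 3 and 6 were again the lowest 2 arrays, with control replicate 4 next at 9.71, and replicate 1 the highest. The difference was -0.47 (SE 0.40, 95% interval -1.33 to 0.40, limma adjusted p = 0.633). The other 3 differed by -0.54 (SE 0.41), -0.22 (SE 0.35) and -0.13 (SE 0.43). The identifiers of 2 of these end in x_at, a mark for probes that can also bind other transcripts. The 4 probesets tracked each other closely (r = 0.85 to 0.99 over 14 arrays). With array weights the probeset at -0.54 read -0.92 with an adjusted p of 0.0437, and without deficient replicates 3 and 6 the brightest probeset differed by 0.01.

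The members shared a wider spread in deficient tumours. In 15 of the 16 tested probesets, or 93.8%, the SD was larger in the deficient group, against 69.4% of all probesets tested. The median ratio of deficient to control SD was 1.76 for the members and 1.31 for all probesets. The ratio was 4.28 for the brightest Tgfb2 probeset and 1.02 for Bmp4. The 1 exception was the dimmest Smad4 probeset, at 0.52. Many of these probesets measure the same gene, so they are not independent of each other, and no test is given.

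**Figure D3:**
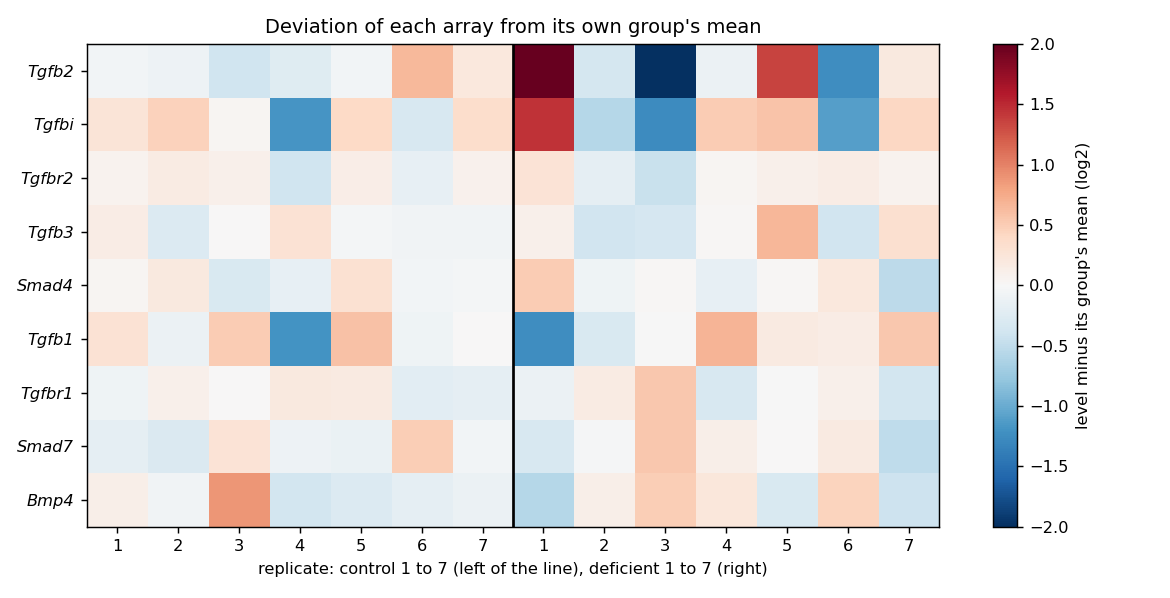
Deviation of each array from the mean of its own group (log2) for the brightest probeset of 9 genes, with controls left and deficient arrays right of the line. Colours run to 2 in either direction, which Tgfb2 passes in deficient replicates 1 and 3. Deficient replicates 3 and 6 are low for Tgfb2 and Tgfbi and high for Bmp4, Smad7 and Tgfbr1, and deficient replicate 1 shows the opposite for Tgfb2, Tgfbi and Bmp4.

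After the group means were removed, some members varied together across arrays and others in opposition. The 9 measured genes give 36 pairs. By Pearson correlation 3 pairs passed an adjusted p under 0.05 (6 at an unadjusted p under 0.05), and by Spearman correlation 0 did. Tgfb2 and Tgfbi varied together (r = 0.79, permutation p = 0.00372, adjusted p = 0.0446, rho = 0.71, p = 0.0202, adjusted p = 0.242, n = 14 arrays). Without the 2 arrays farthest from the Tgfb2 median, deficient replicates 1 and 3, r was 0.56. It was 0.04 withamong controls and 0.94 withamong deficient arrays, so the relation rests on the deficient group.

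Tgfb2 and Bmp4 varied in opposition (r = -0.71, permutation p = 0.0018, adjusted p = 0.0396, rho = -0.75, p = 0.00859, adjusted p = 0.242). Without the same 2 arrays r was -0.58. It was -0.45 withamong controls and -0.91 withamong deficient arrays.

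Tgfbr2 and Tgfbi varied together (r = 0.78, permutation p = 0.0022, adjusted p = 0.0396, rho = 0.59, p = 0.0457, adjusted p = 0.274). The r was 0.97 among controls, 0.70 among deficient arrays and 0.55 without control replicate 4 and deficient replicate 3. Without deficient replicates 3 and 6 it was 0.96 (permutation adjusted p = 0.00648). The same removal left r at 0.57 for Tgfb2 with Tgfbi (permutation adjusted p = 0.615) and at -0.55 for Tgfb2 with Bmp4 (permutation adjusted p = 0.597), so neither of those passed. With 1 array left out, these 3 pairs kept an adjusted p under 0.05 in 4, 6 and 5 of 14 runs for Tgfb2 with Tgfbi, Tgfb2 with Bmp4 and Tgfbr2 with Tgfbi. These values treat the 14 arrays as independent, although some arrays share digits.

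The sequence before the start of Bmp4, Tgfb2 and Tgfbi is shown because Tgfb2 passed the threshold with both of the others, in the same direction as Tgfbi and against Bmp4. RefSeq promoter windows matched 7 of the 10 genes, and the 250 bases before the annotated start were searched on both strands for ACGTG, the core of the hypoxia response element that HIF proteins bind, and CAGAC, the core of the SMAD-bound CAGA box. Capitals mark these letters. All sequences are from RefSeq on build GRCm38.p6, 5′ to 3′ on the strand of the gene. The windows are chr14:46390670-46390919 (minus strand) for Bmp4, chr1:186705990-186706239 (minus strand) for Tgfb2 and chr13:56609336-56609585 (plus strand) for Tgfbi.
Bmp4: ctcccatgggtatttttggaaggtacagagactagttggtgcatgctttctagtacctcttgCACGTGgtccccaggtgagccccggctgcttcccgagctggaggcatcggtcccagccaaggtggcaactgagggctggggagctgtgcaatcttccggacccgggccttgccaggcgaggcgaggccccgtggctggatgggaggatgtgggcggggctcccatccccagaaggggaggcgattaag
Tgfb2: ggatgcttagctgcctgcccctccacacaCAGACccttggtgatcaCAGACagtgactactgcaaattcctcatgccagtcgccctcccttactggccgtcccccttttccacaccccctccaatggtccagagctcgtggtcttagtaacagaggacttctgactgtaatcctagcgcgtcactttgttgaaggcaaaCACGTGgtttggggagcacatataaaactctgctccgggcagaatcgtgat
Tgfbi: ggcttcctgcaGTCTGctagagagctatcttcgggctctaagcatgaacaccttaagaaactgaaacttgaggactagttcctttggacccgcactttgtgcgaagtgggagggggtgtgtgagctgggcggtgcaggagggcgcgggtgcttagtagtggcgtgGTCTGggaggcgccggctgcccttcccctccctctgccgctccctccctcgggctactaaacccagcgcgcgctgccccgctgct
In the Bmp4 and Tgfb2 windows the palindrome CACGTG, which holds ACGTG on both strands and is also an E-box, begins 188 and 51 bases before the start. Of the 8 windows searched for the 7 genes these 2 hold ACGTG, and those of Tgfb1, Tgfbr1, Tgfbr2, Smad3 and Tgfbi do not. GCGTG, another form of the hypoxia response element core, was not searched for, and the Tgfbi window shown above holds it. A window without ACGTG is thus not a window without that core. ACGTG is found in 16.6% of the 32851 windows of that length in the table and CACGTG in 6.02%. CAGAC occurs 2 times in the Tgfb2 window, 2 times in the Tgfbi window and 0 times in that of Bmp4, and it is in 4 of the 8 windows against 42.2% of all. A match is a description of letters and not evidence of binding, and a role of these letters in the levels was not tested.

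Marker genes of other cell types moved with several members. The correlations with marker lists were added after the data were seen. Their p-values treat the 14 arrays as independent, although some arrays share digits. In whole tumour RNA fewer cells of a type and less RNA per cell cannot be told apart. The mean level of 10 endothelial markers ran from 7.04 to 8.19 among controls and from 5.29 to 8.34 among deficient arrays. All 10 markers were lower on average in deficient tumours, against 49.6% of all genes, but 0 were called (smallest limma adjusted p = 0.180). The lowest arrays of this mean were deficient replicates 3 (5.29) and 6 (5.44) and its highest were replicates 1 (8.34) and 5 (8.20), the order seen for Tgfb2. Across the 14 arrays, group means removed, Tgfb2 followed this mean at r = 0.94 (permutation p = 5e-05, adjusted p = 0.00225, rho = 0.93, p = 5e-05, adjusted p = 0.0045). The r was 0.88 without deficient replicates 3 and 6, 0.83 withamong controls and 0.96 withamong deficient arrays.

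Relations of the 9 genes with 10 marker lists made 90 pairs, of which 9 passed by Pearson and 6 by Spearman correlation (26 by Pearson at an unadjusted p under 0.05). All 9 were positive and belonged to Tgfb2, Tgfbr2 and Tgfbi. Tgfb2 also followed the 4 measured ciliated cell markers (r = 0.84, permutation p = 1e-05, the smallest these permutations can give, adjusted p = 0.0009, rho = 0.86, p = 0.00023, adjusted p = 0.0093, r = 0.85 without deficient replicates 3 and 6). That list ran from 5.84 to 9.86 among controls and from 3.47 to 7.57 among deficient arrays, its regulator Foxj1 lay under the filter, and Rsph1 and Tekt1 averaged under 4 among deficient arrays. Tgfb2 passed by Pearson correlation with fibroblast markers (r = 0.87, permutation p = 0.00161, adjusted p = 0.0207, rho = 0.78, p = 0.00667, adjusted p = 0.06, r = 0.69 without deficient replicates 3 and 6) and with alveolar type I markers (r = 0.86, permutation p = 0.00094, adjusted p = 0.0166, rho = 0.82, p = 0.00115, adjusted p = 0.0175, r = 0.64 without them). With alveolar type II markers it passed by Spearman correlation alone (rho = 0.85, p = 0.00117, adjusted p = 0.0175, r = 0.82, p = 0.00737, adjusted p = 0.0533). List means are unscaled, so a gene with a wide spread weighs more. Among deficient arrays the SD was 1.07 for Etv5 and 0.24 for Slc34a2 in the type II list. In the type I list it was 2.16 for Igfbp2 and 0.34 for Ager. Tgfb2 thus followed several lists, and the part of these cells in its values was not tested.

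Tgfbr2 followed the mean of 10 macrophage markers (r = 0.82, permutation p = 0.00098, adjusted p = 0.0166, rho = 0.87, p = 0.00031, adjusted p = 0.0093). Without deficient replicates 2 and 3 r was 0.80. The macrophage mean ran from 8.64 to 10.12 among controls and from 8.47 to 9.75 among deficient arrays. Of its 10 markers 8 were lower in deficient tumours, against 49.6% of all genes, but 0 were called (smallest limma adjusted p = 0.217). Tgfbr2 also passed with fibroblast markers by Pearson correlation (r = 0.74, permutation p = 0.0043, adjusted p = 0.043), though not by Spearman (rho = 0.47, p = 0.119, adjusted p = 0.334). The part of these cells in the Tgfbr2 values was not tested.

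Tgfbi followed the mean of 13 fibroblast markers (r = 0.85, permutation p = 0.00111, adjusted p = 0.0166, rho = 0.89, p = 0.00101, adjusted p = 0.0175, r = 0.75 without deficient replicates 3 and 6). The fibroblast mean ran from 8.89 to 9.91 among controls and from 7.11 to 9.49 among deficient arrays, with Lum under the filter. Of the 13 markers 12 were lower in deficient tumours, against 49.6% of all genes, but 0 were called (smallest limma adjusted p = 0.210). The r of Tgfbi with endothelial markers was as high (0.85, permutation p = 0.00076, adjusted p = 0.0166, rho = 0.78, p = 0.00483, adjusted p = 0.0544, r = 0.67 without deficient replicates 3 and 6). It also passed with alveolar type I markers by Pearson correlation (r = 0.78, permutation p = 0.00273, adjusted p = 0.0307, rho = 0.73, p = 0.00984, adjusted p = 0.0738, r = 0.50 without them). Bmp4 passed with no list. Its lowest r was with ciliated markers (-0.70, permutation p = 0.00768, adjusted p = 0.0533, rho = -0.64, p = 0.0203, adjusted p = 0.107), followed by alveolar type I markers (-0.66, permutation p = 0.0077, adjusted p = 0.0533, rho = -0.63, p = 0.0248, adjusted p = 0.112). Bmp4 also ran against the endothelial mean (r = -0.65, permutation p = 0.0129, adjusted p = 0.0614, rho = -0.61, p = 0.0421, adjusted p = 0.172), which was -0.44 without deficient replicates 3 and 6. The part of these cells in the Tgfbi and Bmp4 values was not tested.

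**Figure D4:**
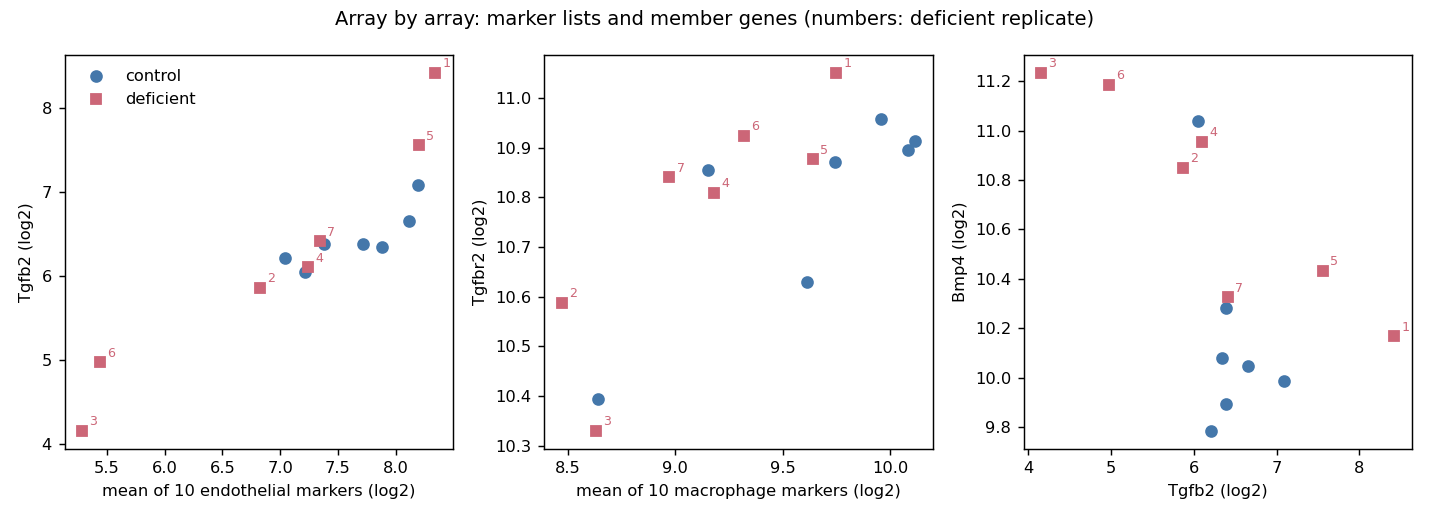
Array values of Tgfb2 against the mean of 10 endothelial markers, Tgfbr2 against the mean of 10 macrophage markers, and Bmp4 against Tgfb2 (log2 on all axes). Circles are control arrays, and squares are deficient arrays marked with their replicate number. Deficient replicates 3 and 6 lie at the low end of Tgfb2 and the high end of Bmp4.

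The genes whose pattern was most like that of each member were picked as the 3 with the highest r over 14 arrays, group means removed, among 7771 tested genes. As picks for a high r they carry no test. Those of Tgfb2 were Jdp2 (0.98), Tbx3 (0.98) and Clec14a (0.98), the last a C-type lectin gene of endothelium. Those of Tgfbr2 were Itgb2 (0.95), the beta-2 integrin of leukocytes, Csf2rb2 (0.95), a cytokine receptor subunit gene, and Selplg (0.93), the P-selectin ligand of leukocytes. Those of Tgfbi were Alox5ap (0.96), which encodes an activator of leukotriene synthesis, Slc10a6 (0.96) and the lymphocyte antigen gene Cd2 (0.95). Bmp4 was nearest to 1810055G02Rik (0.93), Ripk3 (0.88) and Emp3 (0.88). Tgfb1 was nearest to Trappc3 (0.90), Ifi30 (0.86) and Atg4d (0.85), and Tgfb3 to Phf8 (0.85), Emd (0.83) and Pea15a (0.83). Tgfbr1 was nearest to Mettl18 and Esf1 (0.91 each) and Idh3b (0.86), Smad4 to Usp24 (0.93), Bap1 and Nup85 (0.91 each), and Smad7 to Coro2a (0.84), Asph (0.81) and Parm1 (0.79).

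Of the wider pathway, 75 genes in 8 lists by role were tested, each by its brightest tested probeset. None passed the threshold with limma (smallest adjusted p = 0.132), against 0.0386% of all 7771 genes. At an unadjusted p under 0.05 there were 13, or 17.3%, against 15.2% of all genes, with 5 higher and 8 lower (7.45% and 7.73% over all genes). Of the 75 genes 43 were lower, against 49.6% of all genes. The median difference was -0.08, against 0.003 for all genes. With array weights 13 passed, 4 higher and 9 lower, under the setting that called 15% of all probesets.

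Genes of TGF-beta latency and activation were lower in 8 of 11 cases (median -0.16). Thbs1, which encodes thrombospondin-1, an activator of latent TGF-beta and also a TGF-beta target, read 7.74 ± 0.56 among controls and 8.81 ± 0.47 among deficient tumours. That difference of 1.06 (SE 0.26) had the smallest p of all 75 genes (limma adjusted p = 0.132). Itgav, the integrin chain that frees the ligand, differed by 0.18 (SE 0.09), and the latent TGF-beta binding protein genes Ltbp4 and Ltbp3 by -0.81 (SE 0.39) and -0.14 (SE 0.13). The deficient mean of Ltbp4, 3.80, lay at the background, so its difference is only a bound.

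Of the 7 other receptor genes 3 were higher and 4 lower (median -0.13). Bmpr1a, a type I receptor for BMP4, read 9.11 ± 0.25 among controls and 9.55 ± 0.18 among deficient tumours, a difference of 0.44 (SE 0.13, limma adjusted p = 0.158), and its 3 other tested probesets differed in the same direction. Acvr2a differed by 0.25 (SE 0.17) and Acvrl1, an endothelial receptor, by -0.99 (SE 0.63).

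Of the 4 other SMAD genes 0 had an unadjusted p under 0.05 (median -0.06), with Smad1 at 0.14 (SE 0.18), Smad2 at -0.15 (SE 0.11) and Smad5 at -0.10 (SE 0.25). Of the regulators of SMADs 12 of 14 were higher (median 0.11). Fkbp1a, which encodes the FKBP12 protein that holds the type I receptor inactive, read 11.83 ± 0.10 and 12.20 ± 0.20, a difference of 0.37 (SE 0.10, limma adjusted p = 0.141). Tob1 differed by 0.42 (SE 0.18) and the ubiquitin ligase gene Nedd4l by -0.44 (SE 0.17).

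All 6 tested genes in the list of other ligands, which includes Bmp1, were lower (median -0.28). Another 10 on the array lay under the filter, and not every sign held under the alternatives. Gdf10, also called BMP3B, read 5.01 ± 0.94 among controls and 3.16 ± 1.58 among deficient tumours (-1.85, SE 0.64, limma adjusted p = 0.214), the deficient mean lying at the background, so this is only a bound. Bmp1, which encodes a procollagen-cutting protease and not a ligand despite its name, differed by -0.30 (SE 0.23). Bmp6 differed by -0.46 (SE 0.74), or by 0.30 without deficient replicates 3 and 6. Inhbb differed by -0.04 (SE 0.24), or by 0.32 with array weights. Of 8 secreted antagonists 5 were lower (median -0.08), with Nbl1 at -0.93 (SE 0.41), the proteoglycan genes Fmod and Dcn at -1.07 (SE 0.55) and -0.29 (SE 0.48), and Bgn at -0.09 (SE 0.21).

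Target genes gave no single direction. Of 24 genes that textbooks give as raised by TGF-beta, 12 were higher and 12 lower (median -0.01). Besides Thbs1, Angptl4, a lipase inhibitor gene that hypoxia also induces, differed by -1.001 (SE 0.32, limma adjusted p = 0.191), Col3a1 by -0.45 (SE 0.21) and the bright Tsc22d1 by 0.06 (SE 0.11). Without control replicate 4 Angptl4 differed by -1.24 and passed (adjusted p = 0.0489), under a setting that raised the calls over all probesets from 5 to 85. Of 7 BMP targets 2 were higher and 5 lower (median -0.08), and 4 had an unadjusted p under 0.05, against 15.2% of all genes. Id2, an inhibitor of helix-loop-helix factors, differed by 0.43 (SE 0.17, limma adjusted p = 0.276), Id4 by -1.44 (SE 0.58, a bound, with the deficient mean of 3.94 at the background), the vessel gene Hey1 by -1.23 (SE 0.52) and Gata2, a factor of endothelial and blood cells named here after its value was seen, by -1.62 (SE 0.71).

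**Figure D5:**
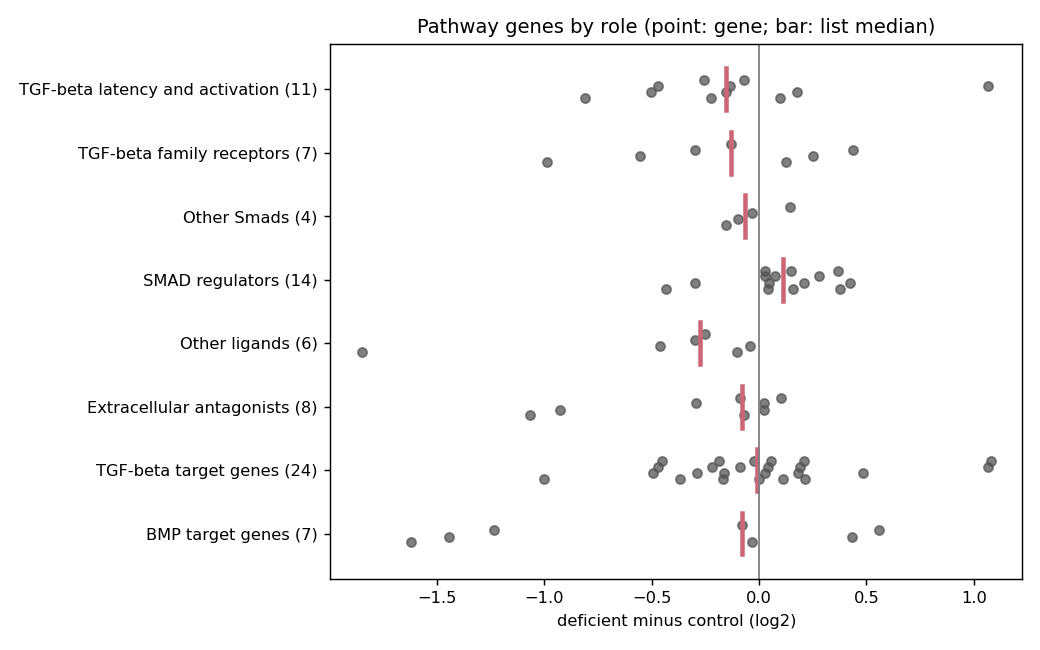
Difference between groups (deficient minus control, log2) for each tested gene of 8 pathway lists, with the list's median as a bar and the number of genes in brackets. A gene in 2 lists is drawn in both. Medians lie between -0.28 for the other ligands and 0.11 for the SMAD regulators.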

How the data were processed

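The authors deposited log2 probeset levels made with GCRMA, per the submitters' processing notes, whose version was not stated. This method estimates background from the bases of each probe, so weak signals are pulled to a common low level, and then normalises arrays and combines probes. Values ran from 2.12 to 15.38, and 43.8% lay under 4. Array medians were 5.19 to 5.29 (control) and 5.13 to 5.20 (deficient). Precision is limited by how many arrays there are.

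Probesets other than the 64 Affymetrix controls with a value above 4 in at least 7 arrays (12701) entered limma 3.58.1 (R 4.3.3; lmFit with 1 group term, eBayes, two-sided, Benjamini-Hochberg). On simulated data for this comparison with 12701 probesets, limma recovered 77% of changes of 1 and 95% of changes of 2 (log2), and called 10 unchanged probesets. The simulated arrays were independent, with the same SD in both groups for each probeset. In the real data the members' SE was larger (median 0.28 against 0.18 over all probesets). Their spread was mostly wider among deficient arrays, so these shares need not hold for the members. Exact permutation used all 3432 splits (smallest p 0.000583) and correlations 100000 permutations within groups. Intervals are 95%.

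The platform annotation, which can be old, named genes: 20380 probesets had 1 gene, 691 several and 1555 none. A gene was represented by its brightest tested probeset. The text names all members, from each pathway list the 3 genes with the smallest p and the brightest, the 3 genes nearest to each member, and markers where a result turns on them. The members and lists were chosen with earlier results of these data known. Correlations with marker lists were added after the data were seen. Alternatives covered filter, normalisation, variance model, array weights, shared digits, the replicate block, the threshold and arrays left out.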

Additional observations from a re-analysis of the deposited data

Results flagged for a closer look

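In 5 of 32 groups of 7 arrays checked for the tested member probesets, 1 array stood far from the others by Dixon's ratio of gap to range (above the 95% critical value). Chance flags about 1 in 20. Control replicate 4 was the lowest control for Tgfb1 (4.82, next 5.89) and for 1 Tgfbi probeset (8.68, next 9.58). Control replicate 3 was the highest control for Bmp4 (11.04, next 10.28). Deficient replicate 3 was the highest deficient array for the second Tgfbr1 probeset (7.96, next 6.07). Deficient replicate 1 was the highest deficient array for the second Smad4 probeset (10.06, next 9.02).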

How the results depend on the processing

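Among the members 0 probesets were called under every filter, normalisation, variance model, block, threshold and left-out array tried, the exception being array weights, which called 2 (Bmp4 and 1 Tgfbi probeset). Those weights ran from 0.277 (deficient replicate 1) to 4.15 (control replicate 5), and called 1900 of all probesets and 13 pathway genes, against 5 and 0 without weights. All probesets called were 3 with a value above 4 in all arrays, 0 with no filter, 9 with a variance trend, 11 at an adjusted p under 0.10, 0 with shared digits as a random block, 0 with arrays averaged over them, 32 without deficient replicates 3 and 6, and 0 to 85 with 1 array left out. Pathway genes called were 0 to 1 with 1 array left out. Why these counts move was not tested. With the replicate block 2 of all probesets and 0 members were called. Same-numbered arrays deviated together at r = -0.23 to 0.22, with 2 of 7 pairs over 0.1 and 0 of 14 arrays closest to its own number. No pairing by number was seen, though so few correlations cannot exclude one. Member pairs correlated past the threshold numbered 3, or 2 after quantile normalisation, 1 without deficient replicates 3 and 6, and 0 to 3 with 1 array left out.

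The differences of Tgfb1, Tgfb3, Bmp4, both tested Tgfbr1 probesets, the dimmest Smad4 probeset and 1 Tgfbi probeset kept their sign under every alternative. Without deficient replicates 3 and 6 the sign turned for Tgfb2 (0.43 and 0.20), Smad7 (-0.034), 3 Tgfbi probesets (0.17, 0.0066 and 0.30), Bmp6 (0.30), Bgn (0.070) and Tgfbr2 (0.045). With array weights it turned for the second Smad4 probeset (-0.14), Smad5 (0.000396), Inhbb (0.32), Bgn (0.057) and Tsc22d1 (-0.00389). With arrays averaged over shared digits it turned for Tgfbr2 (0.012), the second Smad4 probeset (-0.013) and Bgn (0.11), and with digits as a random block for Tgfbr2 (0.0071) and Bgn (0.0098). With 1 array left out the range held 0 for both Tgfb2 probesets (-0.60 to 0.11 and -0.33 to 0.044), Tgfbr2 (-0.079 to 0.060), 2 Smad4 probesets (-0.20 to 0.097 and -0.15 to 0.023), the dimmest Tgfbi probeset (-0.44 to 0.084), Smad5 (-0.24 to 0.086), Inhbb (-0.17 to 0.10), Dcn (-0.52 to 0.001) and Bgn (-0.21 to 0.011). The cause was not tested. The SE of a member difference ran from 0.13 to 0.52 (median 0.28), and the median over all probesets was 0.18. A member difference of 0.34 with an SE of 0.14 was not called.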
